A study of Mus musculus with 26 samples.

Results

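RNA sequencing was examined here for the genes through which mouse cells make sterols and fatty acids under the SREBP transcription factors. The genes were taken from a list of 35 symbols, and 34 of them were found among the 23420 symbols of the expression table. The remaining gene, Msmo1, a sterol C4-methyl oxidase, is listed in the table under its older symbol Sc4mol and is given beside the 34 without being counted with them. The 34 genes comprised 17 enzymes of sterol synthesis, 6 genes of SREBP control, 5 of fatty acid synthesis and 6 of fatty acid desaturation and elongation. All 34 passed the filter on low values, a normalized count of at least 10 in at least 2 of 26 libraries, and so did 13311 genes in all.

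The libraries came from sorted antigen-presenting cells of mice labelled mTORΔAPC (KO) and of wild type littermates (WT). Dendritic cells (DCs) show captured antigen to T cells, and alveolar macrophages are the resident phagocytes of the lung surface. Each genotype had 2 libraries of CD8a DCs and 2 of CD11b DCs from spleen, and 3 each of lung CD11b DCs, alveolar macrophages and DCs from inflamed lung (inflammatory DCs). The inflammatory DCs were from lungs exposed to intranasal house dust mite extract, 25 µL at 1 mg/mL per dose, and were labelled day 17, with 18 days in the protocol; the other 4 cell types were from mice at steady state. The labels name the deletion as one of antigen-presenting cells, without the promoter, the deleted exons, the age of the mice or the number of animals per library.

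SREBPs are made as membrane proteins of the endoplasmic reticulum, bound to the escort protein Scap. When sterols are scarce, Scap carries them to the Golgi, where they are cut so that the active factor reaches the nucleus; when sterols are plentiful, Insig1 and Insig2 hold Scap back. Srebf2 is best known for driving sterol synthesis and Srebf1 for fatty acid synthesis and desaturation, and the kinase mTOR, in its complex 1, is known to promote SREBP activity. In alveolar macrophages, lipid handling is tied to the turnover of surfactant.

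SREBPs bind promoters together with NF-Y, which binds the CCAAT box. The upstream sequences of 3 genes are shown, because Hmgcs1 and Mvd were sterol synthesis genes lower in KO alveolar macrophages and Insig1, a feedback target of SREBPs, was lower in KO on average over the cell types. Each line gives the 250 bases before the RefSeq start (GRCm38.p6), 5′ to 3′ on the gene's strand, less any that lie inside the GENCODE vM21 gene, with CCAAT boxes in capitals (written ATTGG where they lie on the opposite strand), and the match to TCACNCCAC, an SREBP site, in capitals too.
Hmgcs1 (chr13:119690101-119690350, plus strand): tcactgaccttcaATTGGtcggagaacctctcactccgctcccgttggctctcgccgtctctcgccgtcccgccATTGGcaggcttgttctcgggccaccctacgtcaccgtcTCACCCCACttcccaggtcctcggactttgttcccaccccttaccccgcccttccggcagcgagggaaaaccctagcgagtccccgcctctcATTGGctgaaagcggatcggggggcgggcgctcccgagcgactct
Mvd (chr8:122443423-122443672, minus strand): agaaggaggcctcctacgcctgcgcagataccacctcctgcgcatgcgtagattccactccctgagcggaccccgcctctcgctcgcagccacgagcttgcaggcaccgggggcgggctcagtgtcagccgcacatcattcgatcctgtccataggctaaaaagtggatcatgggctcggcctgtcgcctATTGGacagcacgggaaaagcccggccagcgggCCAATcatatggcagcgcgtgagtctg
Insig1 (chr5:28071162-28071362, plus strand): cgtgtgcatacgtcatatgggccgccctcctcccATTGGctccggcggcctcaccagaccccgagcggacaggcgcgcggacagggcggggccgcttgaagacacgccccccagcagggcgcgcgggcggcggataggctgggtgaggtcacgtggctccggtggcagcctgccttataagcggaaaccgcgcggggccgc
The Hmgcs1 window held 3 CCAAT boxes and the TCACNCCAC match, 129 to 137 bases before the start. The Mvd window held 2 CCAAT boxes and the Insig1 window 1. For Insig1 the GENCODE start lies 49 bases upstream of the RefSeq start, so 201 bases are shown. The RefSeq window of Cyp51 also held a CCAAT box, but the GENCODE start lies 49 bases upstream of RefSeq's there too, and the box lies between the 2 starts. RefSeq windows of 250 bases before the RefSeq start were found for 28 of the 35 listed genes, as 37 windows, and were searched on both strands. CCAAT was present in 22 of the 28 genes, in 62.2% of their windows against 33.8% of all 32851 windows. The GC box GGGCGG was present in 70.3% of the members' windows against 32.7% of all, the E-box CACGTG in 16.2% against 6.02%, and TCACNCCAC in 2.7% against 1.05%. The TCACNCCAC share was 1 of 37 windows, that of Hmgcs1. These letters are a description of the windows, not evidence of binding.

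The libraries held 7.37 to 14.1 M counted reads and 12992 to 14407 detected genes. Mtor, the targeted gene, was at 384 to 427 in WT and 40.0 to 68.5 in KO spleen CD8a DCs (normalized counts), and at 355 to 396 and 63.0 to 82.6 in spleen CD11b DCs. It was at 332 to 387 and 71.7 to 104 in alveolar macrophages, 364 to 476 and 169 to 316 in lung CD11b DCs, and 336 to 404 and 196 to 236 in inflammatory DCs. The deleted exons are not given, so a gene-level count is a partial check of the labels. The difference was -0.70 ± 0.22 (SE) on the log2 scale in lung CD11b DCs and -0.74 ± 0.22 in inflammatory DCs, the latter not called (limma adjusted p = 0.0668), against -2.93, -2.36 and -2.02 in the other 3 cell types. Reads from 4 Y-linked genes, summed, were at most 2.3 in the WT libraries of the steady-state cells and 659.5 to 3295 in the KO libraries of spleen DCs and alveolar macrophages. In lung CD11b DCs, KO replicate 1 alone held such reads (1318), and the inflammatory DC libraries held 1420 to 2523 in both genotypes. In spleen DCs and alveolar macrophages, genotype and the presence of male cells therefore cannot be told apart. Defining markers were present for spleen CD8a DCs (Xcr1, 6363 to 6377 in WT) and alveolar macrophages (Siglec5, 6979 to 7323 in WT), whereas the DC markers Flt3 and Zbtb46 were low in WT inflammatory DCs, at 104 to 170.1 and 88.9 to 111.

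KO was compared with WT within each cell type, with limma on log2(normalized count + 1), and a gene was called at an adjusted p under 0.05 over all 13311 genes. Values after ± are standard errors (SE). Of the 34 members, 10 were called in alveolar macrophages (3 higher, 7 lower), or 29.4%, where 16.9% of all genes were called (10.5% higher, 6.39% lower). In lung CD11b DCs 7 were called (1 higher, 6 lower), or 20.6%, a share below the 26.1% of all genes (12% higher, 14% lower). In spleen CD8a DCs 1 member was called, higher in KO, beside 5.13% of all genes (1.5% higher, 3.63% lower). In spleen CD11b DCs 0 were called, beside 1.52% of all genes (1.28% higher, 0.233% lower). In DCs from inflamed lung 0 were called as well, beside 3.37% of all genes (1.45% higher, 1.92% lower). In those 2 cell types, 7 and 1 members had an unadjusted p under 0.05, and edgeR and DESeq2 on the recovered reads also called 0. Of the 34 members, 15 were called in at least 1 cell type and 19 in none. The shares of all genes called in at least 1 cell type, or with an unadjusted p under 0.05, were not counted. These counts therefore describe the members alone.

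The members' median log2 difference was below 0 in each cell type: -0.33 in alveolar macrophages, -0.31 in spleen CD11b DCs, -0.24 in lung CD11b DCs, -0.16 in inflammatory DCs and -0.10 in spleen CD8a DCs. The medians over all genes were 0.02, 0.00, -0.05, -0.02 and 0.00, in the same order. The difference was negative for 26, 23, 25, 27 and 21 of the 34 members, and 7 were negative in all 5 comparisons. Shares over all genes were not counted for these signs. Acly was the 1 member called in the same direction in 2 cell types. It was lower in lung CD11b DCs and alveolar macrophages. The lung call held in 2 of the 6 fits without 1 library, with log2 differences from -0.82 to -0.22. It held in 4 of the 8 settings that kept all libraries. Scd1 was called lower in lung CD11b DCs and higher in alveolar macrophages, and Elovl5 higher in spleen CD8a DCs and lower in lung CD11b DCs.

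**Figure D1:**
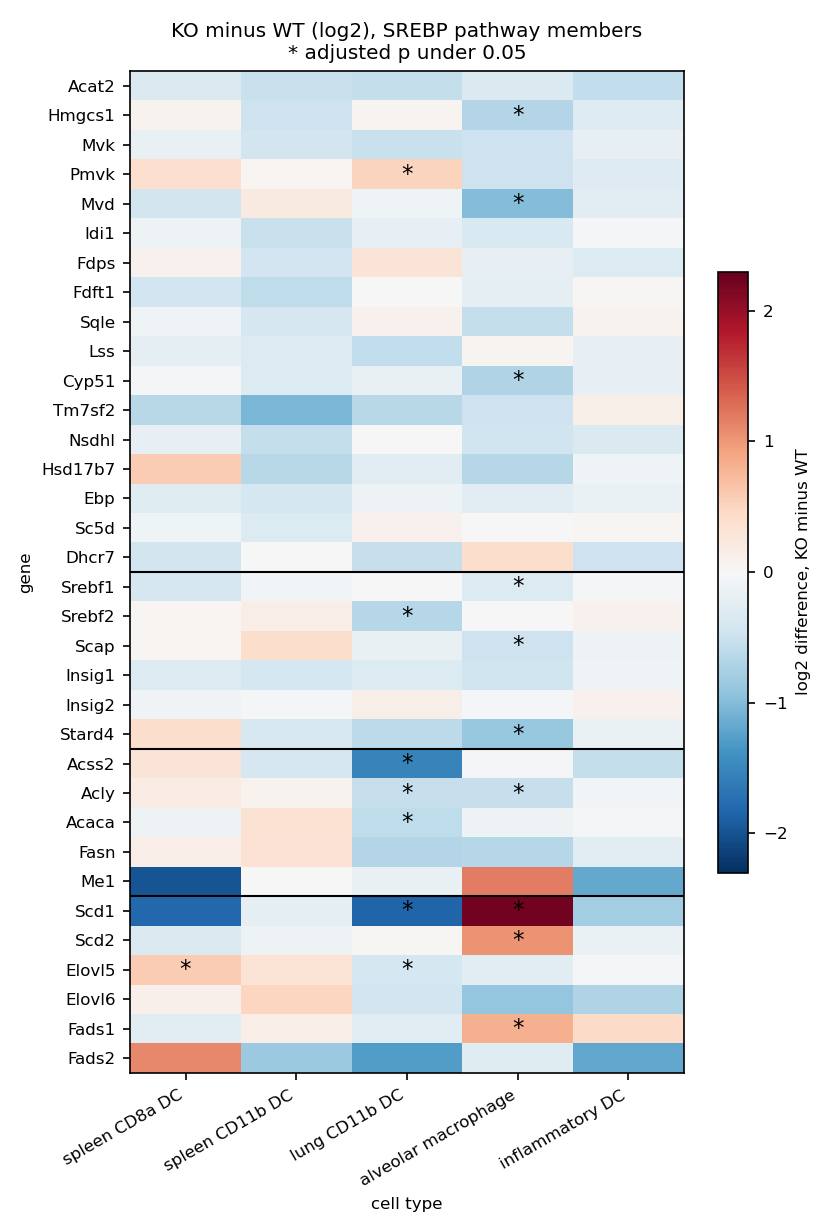
Log2 difference between KO and WT for the 34 members (rows, grouped from top to bottom as sterol synthesis, SREBP control, fatty acid synthesis, and desaturation and elongation) in 5 cell types (columns); red is higher in KO, blue is lower, and a star marks an adjusted p under 0.05. Stars stand on 10 members in alveolar macrophages, 7 in lung CD11b DCs and 1 in spleen CD8a DCs, and the red cells of Scd1, Scd2 and Fads1 in alveolar macrophages lie below mostly blue rows of sterol synthesis.

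In KO alveolar macrophages, 3 genes of fatty acid desaturation were higher, while 3 of 17 sterol synthesis genes, 3 control genes and Acly were lower. Scd1 and Scd2 encode stearoyl-CoA desaturases, which put a first double bond into saturated fatty acids. Scd1 was at 387, 310.2 and 357 in the WT libraries and at 1656, 1688 and 1541 in the KO libraries (normalized counts). The 3 KO libraries stood well above the 3 WT libraries, and the highest Scd1 count in any library other than these 3 was 387. The log2 difference was 2.21 ± 0.65 (SE, adjusted p = 0.0194) by limma, or 4.64-fold higher. Scd2 was at 737, 704 and 863 in WT and 1555, 1508 and 1654 in KO, again without overlap, a difference of 1.04 ± 0.12 (SE, adjusted p = 7.4e-07). Fads1, the delta-5 desaturase of polyunsaturated fatty acid synthesis, was at 87.9, 56.3 and 102 in WT and 145, 133 and 146 in KO, a difference of 0.82 ± 0.25 (SE, adjusted p = 0.0234). Its partner desaturase Fads2 was near the lower limit of counting in both genotypes, at 5.52 to 7.59 and 4.42 to 7.31. The elongases Elovl6 and Elovl5 were not called: Elovl6 was at 134, 115 and 132 in WT and 62.8, 81.5 and 61.2 in KO (-0.89 ± 0.35, adjusted p = 0.0876), and Elovl5 had a difference of -0.24 ± 0.11 (SE, adjusted p = 0.144).

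Of the 17 sterol synthesis genes in alveolar macrophages, 3 were called lower and 0 higher, 14 had a negative difference, and their median was -0.46. Mvd, which decarboxylates mevalonate diphosphate, was at 587, 652 and 677 in WT and 242, 300.2 and 439 in KO, with no overlap and a difference of -1.004 ± 0.23 (SE, adjusted p = 0.00332). Cyp51, the lanosterol demethylase, was at 779, 858 and 884 in WT and 425, 548 and 601 in KO, a difference of -0.69 ± 0.18 (SE, adjusted p = 0.00932). Hmgcs1, which makes the HMG-CoA used for mevalonate, was at 1526, 1716 and 1651 in WT and 820.3, 1121 and 1167 in KO, a difference of -0.67 ± 0.19 (SE, adjusted p = 0.0163). Each of the 3 genes was lower in every KO library than in any WT library. Among the 14 that were not called were Sqle, the squalene epoxidase (595, 689.9 and 706 in WT, 337, 509.9 and 533 in KO), and Dhcr7, the last enzyme of one branch of the pathway, which had higher counts in KO (689.8, 619 and 731 in WT, 791, 1062 and 865 in KO, 0.41 ± 0.24 (SE, adjusted p = 0.299)).

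Of the 6 control genes, 3 were called lower in KO alveolar macrophages. Scap was at 715, 761 and 698 in WT and 475, 527 and 566 in KO, a difference of -0.47 ± 0.11 (SE, adjusted p = 0.00227). Stard4, a cytosolic sterol carrier, was at 109.6, 132 and 117 in WT and 53.1, 58.2 and 88.6 in KO, a difference of -0.87 ± 0.24 (SE, adjusted p = 0.0134). Srebf1 was at 1492, 1529.9 and 1528 in WT and 1134, 1279.6 and 1231 in KO, a difference of -0.32 ± 0.10 (SE, adjusted p = 0.0299). The KO libraries lay below the WT libraries for all 3 genes. Srebf2 overlapped between genotypes, at 513, 574 and 576 in WT and 536, 533 and 605 in KO (0.01 ± 0.15, adjusted p = 0.99). Insig1 was at 878, 949 and 948 in WT and 641, 815 and 585 in KO, which did not overlap but missed the threshold (-0.46 ± 0.20, adjusted p = 0.13). In fatty acid synthesis, Acly, which makes cytosolic acetyl-CoA from citrate, was called lower, at 3621, 3736 and 4028 in WT and 2408, 2649.7 and 2826 in KO (-0.53 ± 0.18, adjusted p = 0.0466). Fasn, the fatty acid synthase, was at 402, 430.5 and 511 in WT and 215, 319.9 and 326 in KO (-0.66 ± 0.29, adjusted p = 0.133), not called.

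Over the 34 members, the KO and WT libraries of alveolar macrophages did not overlap for 20 that were lower and 5 that were higher, where 21.5% and 23.1% of all tested genes did so. The count of 10 called members rested on a spread shared by all 26 libraries. With a fit on the 6 alveolar macrophage libraries alone 21 members were called (4 higher, 17 lower), and 31.9% of all genes. In the fit over all libraries the count was 3 without KO replicate 1, 4 without WT replicate 2 and 6 without WT replicate 3. Scd2, Scap and Mvd were called in each of the 6 fits without 1 library, Scd1 in 2 of them (adjusted p from 0.0456 to 0.0652, log2 difference from 2.13 to 2.29) and Srebf1 in 1. Cyp51 was called in 5 of these 6 fits, Fads1 in 3 (limma adjusted p up to 0.174) and Hmgcs1 in 3 (up to 0.115).

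From a list of 52 other genes of the pathway, 44 were tested and 9 were called in alveolar macrophages, 5 higher and 4 lower. This was 20.5% of those tested, beside 16.9% of all genes. Lpin1, a phosphatidate phosphatase (-0.53 ± 0.16, adjusted p = 0.0211), and Acsl1, an acyl-CoA synthetase (-0.53 ± 0.16, adjusted p = 0.0211), were lower. Acsl4, which activates polyunsaturated fatty acids, was higher (0.60 ± 0.14, adjusted p = 0.0025). Soat2, a sterol acyltransferase, was at 3.43, 2.21 and 3.25 in WT and 11.5, 9.86 and 21.0 in KO (adjusted p = 0.0137), and the elongase Elovl7 at 3.43, 2.21 and 1.08 in WT and 24.8, 50.2 and 32.0 in KO (adjusted p = 0.00969), with a few reads per WT library in both cases.

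Other markers moved in the same comparison. Itgam, low in resident alveolar macrophages, was at 102, 55.2 and 129 in WT and 1063, 1492 and 1777 in KO, and Siglec5 was at 7323, 6979 and 7290.1 in the WT libraries and 3502, 3408 and 3556 in the KO libraries. Of 6 tested T cell markers 5 were higher (summed counts 14.3 to 17.1 in WT, 79.6 to 154 in KO), with 0 of the 6 at 0 in every library of either genotype. Of 6 tested neutrophil markers 4 were higher (106 to 138 in WT, 662 to 863 in KO), with 2 of 9 listed markers at 0 in each genotype. Of 8 markers of conventional type 2 DCs 4 were higher and 0 lower. The summed count of that list was lower in KO (28273 to 28652 in WT, 24678 to 26714 in KO). Of 6 pan-DC markers 2 were higher and 1 lower. Of 5 NK cell markers 2 were higher, and of 6 plasmacytoid DC markers 2, with 0 lower in either list. Of 14 monocyte and macrophage markers 7 were higher and 1 lower (summed counts 272021 to 275231 in WT, 210599 to 227280 in KO), and 3 of 13 alveolar macrophage markers were lower and 0 higher (331252 to 341929 in WT, 204954 to 225250 in KO). Of the same list, Car4 and Marco had higher counts in every KO library than in any WT library without being called (Car4 5844 to 6627 in WT, 13387 to 16109 in KO, Marco 2444 to 2670.1 in WT, 3242 to 3511 in KO). The part of these shifts, and of the Y-linked reads, in the members' differences was not tested. In bulk RNA, fewer cells with a transcript and less transcript per cell cannot be told apart.

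**Figure D2:**
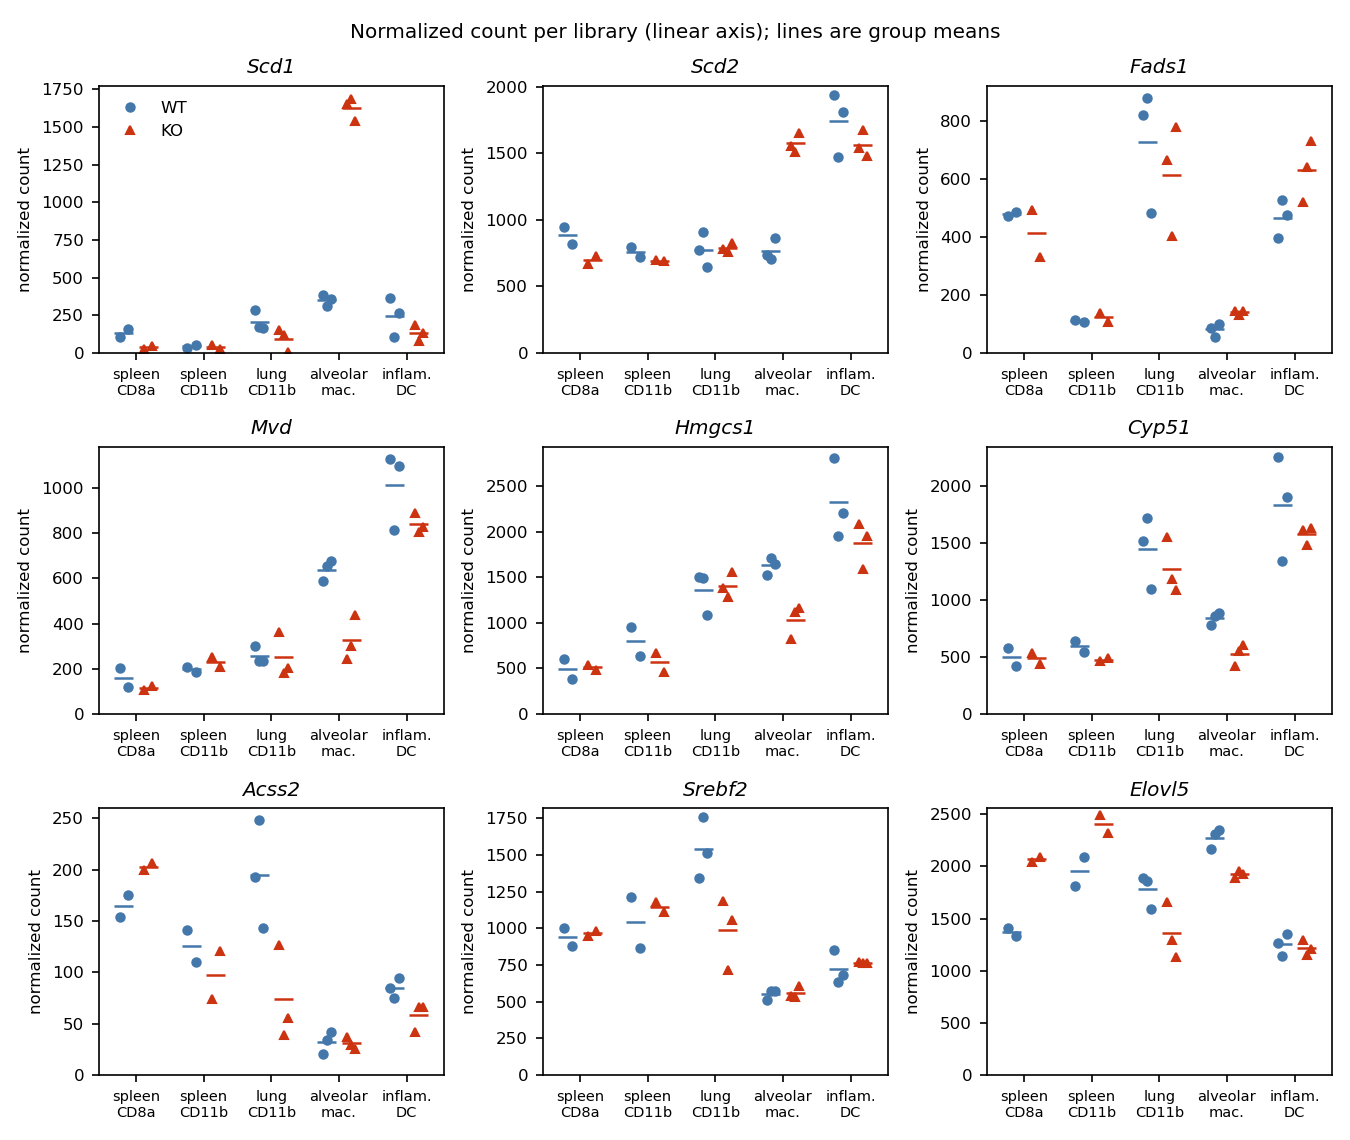
Normalized count (linear axis from 0) of 9 members in each library, by cell type, with WT as blue circles, KO as red triangles and group means as lines. In alveolar macrophages the 3 KO libraries stand above WT for Scd1, Scd2 and Fads1 and below WT for Mvd, Hmgcs1 and Cyp51; in lung CD11b DCs they stand below WT for Acss2 and Srebf2.

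In lung CD11b DCs, the members called lower in KO were the transcription factor Srebf2 and 5 genes of fatty acid synthesis, desaturation and elongation. Acss2, which makes acetyl-CoA from acetate, was at 193, 248 and 143 in WT and 127, 39.4 and 55.3 in KO, and the groups did not overlap. The difference was -1.53 ± 0.35 (SE, adjusted p = 0.00247), or 2.88-fold lower. Srebf2 was at 1341, 1758 and 1516 in WT and 1188, 718 and 1059 in KO, without overlap, a difference of -0.66 ± 0.15 (SE, adjusted p = 0.0026). Elovl5, an elongase of polyunsaturated fatty acids, was at 1888, 1861 and 1589.7 in WT and 1662, 1296 and 1132 in KO, with KO replicate 1 above WT replicate 3 (-0.40 ± 0.11, adjusted p = 0.00855). Acly was at 2432, 2455 and 1864 in WT and 2332, 1012 and 1584 in KO, with overlap between genotypes (-0.52 ± 0.18, adjusted p = 0.0356), and Acaca, the acetyl-CoA carboxylase that makes malonyl-CoA, was at 192, 251 and 213 in WT and 202, 117 and 129 in KO, with KO replicate 1 inside the WT range (-0.58 ± 0.21, adjusted p = 0.0446). Scd1 was at 285, 171 and 168 in WT and 152, 119.8 and 8.77 in KO, a difference of -1.84 ± 0.65 (SE, adjusted p = 0.0396). Without KO replicate 3, the lowest library, the Scd1 difference was -0.58 and was not called (adjusted p = 0.36). Sftpc, a surfactant gene of alveolar type 2 cells, was at 2088, 852 and 66.1 in the WT libraries, highest in the replicate with the highest Scd1 count, and at 96.9, 257 and 209 in the KO libraries; its part in the result was not tested.

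Sterol synthesis genes in lung CD11b DCs had a median difference of -0.12, with 1 of 17 called. The called gene was Pmvk, the phosphomevalonate kinase, higher in KO, at 295, 261 and 178 in WT and 384, 337 and 312 in KO (0.52 ± 0.18, adjusted p = 0.038). Srebf1 overlapped between genotypes, at 657, 677 and 647 in WT and 679, 554 and 762 in KO (0.00 ± 0.10, adjusted p = 1), as did Insig1, at 1245, 1362 and 691 in WT and 987, 708 and 867 in KO (-0.32 ± 0.20, adjusted p = 0.257). Fasn was at 852, 864 and 527 in WT and 516, 378 and 484 in KO, lower in each KO library than in any WT library but not called (-0.68 ± 0.29, adjusted p = 0.0866). KO libraries lay outside the WT range for 2 higher and 6 lower members, where 13.6% and 15% of all genes did so.

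The lung count of 7 was 4 with edgeR and 6 with DESeq2 on the recovered reads, and it was 1 in the fit on these 6 libraries alone, which called 10.3% of all genes. The count was 4 without WT replicate 2, KO replicate 2 or KO replicate 3, and 9 without KO replicate 1, the replicate that held Y-linked reads. Acss2 and Srebf2 were called in each of the 6 fits without 1 library. The number of detected genes also varied, at 14407, 14035 and 13173 in WT and 13876, 13056 and 12992 in KO, and 3 of 8 markers of conventional type 2 DCs were called lower, with summed counts of 62058 to 68973 in WT and 23659 to 34215 in KO. The counts of Flt3, a DC receptor gene, were 3066, 3053 and 1844 in the WT libraries and 1071, 598 and 217 in the KO libraries. Of the other marker lists, 3 of 6 pan-DC markers (707251 to 815209 in WT, 424982 to 483246 in KO) and 4 of 9 markers of conventional type 1 DCs (6997 to 8753 in WT, 5713 to 6913 in KO) were called lower, with 1 higher in each list. Of 14 monocyte and macrophage markers 5 were higher and 1 lower (98939 to 107721 in WT, 104229 to 146683 in KO). Fcgr1, from that list, was at 144 to 378 in WT and 1180 to 1865 in KO. Of 13 alveolar macrophage markers 2 were higher and 6 lower (2381 to 5170.5 in WT, 2923 to 4449 in KO). None of the markers in these 5 lists was at 0 in all libraries of a genotype. The part of these shifts in the members' differences was not tested.

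Of the 44 other pathway genes tested, 6 were called in lung CD11b DCs, 3 in each direction. This was 13.6%, a share below the 26.1% of all genes. Soat1, which esterifies cholesterol for storage, was at 1487, 1572 and 1312 in WT and 2476, 3397 and 4052 in KO (1.16 ± 0.16, adjusted p = 8.15e-06). Faf2 and Syvn1, parts of the machinery that degrades proteins of the endoplasmic reticulum, were also higher (0.63 ± 0.14, adjusted p = 0.00136 and 0.44 ± 0.16, adjusted p = 0.0406). Lbr, a sterol reductase of the inner nuclear membrane, was at 2371, 2014 and 2299 in WT and 1769, 1035 and 886 in KO (-0.92 ± 0.17, adjusted p = 0.000375). Mlycd, the malonyl-CoA decarboxylase (-0.52 ± 0.19, adjusted p = 0.0453), and Tecr, an enoyl-CoA reductase of fatty acid elongation (-0.30 ± 0.11, adjusted p = 0.044), were lower.

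In spleen CD8a DCs, Elovl5 was the called member. It was at 1407 and 1337 in WT and 2045 and 2089.6 in KO, with both KO libraries above both WT libraries, a difference of 0.59 ± 0.13 (SE, adjusted p = 0.00689). Over the members, KO libraries of this cell type lay above both WT libraries for 6 and below both for 11, where 23.1% and 23.6% of all genes did so. The Elovl5 call held in 1 of the 4 fits without 1 library (adjusted p from 0.0271 to 0.0653). Srebf1 was at 582 and 571 in WT and 453 and 432 in KO (-0.38 ± 0.12, adjusted p = 0.0803), and Scd1 was at 107 and 158 in WT and 27.0 and 49.2 in KO (-1.81 ± 0.80, adjusted p = 0.233); neither was called. Srebf2 (0.04 ± 0.19, adjusted p = 0.974), Insig1 (-0.31 ± 0.24, adjusted p = 0.597) and Fasn (0.15 ± 0.35, adjusted p = 0.923) were not called either. Of the 44 other pathway genes, 2 were called, or 4.55%, beside 5.13% of all genes. Erlin1, a protein of the endoplasmic reticulum membrane that takes part in protein degradation there, was at 1266 and 1328 in WT and 2073 and 2031 in KO (0.66 ± 0.17, adjusted p = 0.0166). Nr1h3, the oxysterol receptor LXR alpha, which also marks splenic macrophages, was at 381 and 659.9 in WT and 14.0 and 31.2 in KO (-4.52 ± 0.31, adjusted p = 4.32e-10). The 2 WT libraries held red pulp macrophage markers, with 7 of 7 called lower in KO and summed counts of 23115 to 41171 in WT and 1828 to 2344 in KO, and their part in the members' differences was not tested.

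In spleen CD11b DCs, sterol synthesis genes had a median difference of -0.42, with 15 of 17 negative, yet no member was called. Both KO libraries lay below both WT libraries for 14 of the 34 members and above both for 5, where 23.5% and 24.5% of all genes did so. The WT libraries differed from each other: WT replicate 1 was above the WT mean for 16 of the 17 sterol genes, and replicate 2 above it for 1. Insig1 was at 737 and 479 in WT and 474 and 424 in KO (-0.41 ± 0.24, adjusted p = 0.56), so that the KO libraries lay below both WT libraries. Tm7sf2, a sterol reductase, had the lowest difference of the sterol genes, at 31.4 and 29.6 in WT and 11.4 and 17.5 in KO (-1.05 ± 0.40, adjusted p = 0.24). Srebf1 (-0.07 ± 0.12, adjusted p = 0.934), Srebf2 (0.15 ± 0.19, adjusted p = 0.864), Fasn (0.34 ± 0.35, adjusted p = 0.821) and Scd1 (-0.20 ± 0.80, adjusted p = 0.995) were not called. Of the 44 other pathway genes 0 were called by limma, beside 1.52% of all genes, and 1 had an unadjusted p under 0.05.

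In inflammatory DCs, the spread between WT libraries was wide. WT replicate 1 lay above the WT mean for 17 of 17 sterol genes, and WT replicate 2 lay below it for 17 of 17, and Sqle, for example, was at 1853, 836 and 1185 in WT and 1407, 1198 and 1285 in KO. No member was called, although 27 of 34 differences were negative, and 5 members were lower in every KO library than in any WT library, where 11.1% of all genes were. Srebf1 was at 936, 773 and 855 in WT and 845, 837 and 806 in KO (-0.04 ± 0.10, adjusted p = 0.942), and Srebf2 at 854, 632 and 682 in WT and 772, 765 and 763 in KO (0.10 ± 0.15, adjusted p = 0.889). Insig1 (-0.10 ± 0.20, adjusted p = 0.923), Fasn (-0.25 ± 0.29, adjusted p = 0.829) and Scd1 (-0.80 ± 0.65, adjusted p = 0.705) overlapped between genotypes. Mtor itself was not called in these libraries, although it was lower in every KO library (196 to 236) than in any WT library (336 to 404). Of the other pathway genes, Acsl1 alone was called, at 560.1, 759 and 795 in WT and 1109, 1634 and 1740.2 in KO (1.07 ± 0.16, adjusted p = 0.000529), whereas it was called lower in alveolar macrophages. This 1 call was 2.27% of the 44 genes tested, beside 3.37% of all genes.

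**Figure D3:**
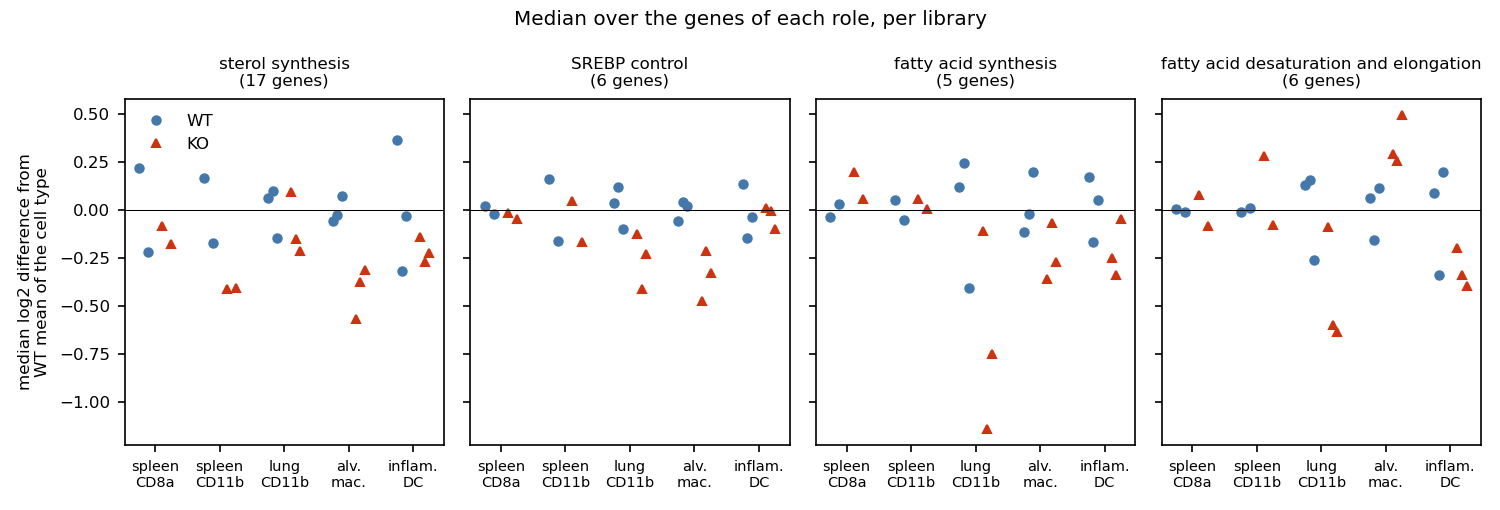
Median over the genes of each of 4 roles of the log2 difference from the WT mean of the same cell type, 1 point per library, with WT as blue circles and KO as red triangles. The 3 KO alveolar macrophage libraries lie at -0.57, -0.38 and -0.31 for sterol synthesis, below their WT libraries, while the WT inflammatory DC libraries spread from -0.32 to 0.36 for the same genes.

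Averaged over the 5 cell types, 7 members were called, each lower in KO, where 9.53% of all genes were called higher and 8.17% lower. They were 5 sterol synthesis genes and 2 control genes. Ebp, the sterol isomerase, had a mean difference of -0.24 ± 0.06 (SE, adjusted p = 0.00354), and Acat2, which condenses acetyl-CoA at the start of the pathway, of -0.46 ± 0.12 (SE, adjusted p = 0.00891). The others were Tm7sf2 (-0.53 ± 0.16, adjusted p = 0.0237), Srebf1 (-0.16 ± 0.05, adjusted p = 0.0257), Insig1 (-0.32 ± 0.10, adjusted p = 0.026), Cyp51 (-0.28 ± 0.09, adjusted p = 0.0343) and Nsdhl (-0.30 ± 0.10, adjusted p = 0.0353). Sc4mol had a mean difference of -0.29 ± 0.10 (SE, adjusted p = 0.0396). Srebf2 (-0.07 ± 0.08, adjusted p = 0.581), Fasn (-0.22 ± 0.14, adjusted p = 0.32) and Scd1 (-0.49 ± 0.32, adjusted p = 0.331) were not called. Acat2 and Ebp were called in each of the 26 fits without 1 library. The count was 3 without spleen CD8a DC KO replicate 2 or without spleen CD11b DC WT replicate 1, 4 without spleen CD11b DC KO replicate 2, and 11 without lung CD11b DC KO replicate 1. In both spleen subsets, 1 KO library had summed Y-linked reads of 932 to 977.3 with Xist at 3092 to 3620, and the other had 3049 to 3295 with Xist at 12.0 to 21.4. Whether the subsets were sorted from the same mice is not given in the labels, and the mean effect and the comparisons between spleen subsets treat their libraries as independent. Ebp and Nsdhl are on the X chromosome, and the Y-linked reads went with genotype in 3 of the 5 cell types; their part in these 2 results was not tested.

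Whether the effect of KO differed between cell types was tested as a difference of differences. The lung CD11b DC libraries enter 3 of these 5 tests and the alveolar macrophage libraries 2, so the tests are not independent. The log2 effect on Scd1 in alveolar macrophages minus that in lung CD11b DCs was 4.06 ± 0.92 (SE, adjusted p = 0.00343), and that in inflammatory DCs minus that in alveolar macrophages was -3.01 ± 0.92 (SE, adjusted p = 0.0447). The effect on Scd2 differed by 1.00 ± 0.17 (SE, adjusted p = 0.000196) and -1.18 ± 0.17 (SE, adjusted p = 4.42e-05) in the same tests. Both Scd2 differences were called in each of the 12 fits without 1 library. The Scd1 difference from lung CD11b DCs was called in each of 12 such fits, and that from inflammatory DCs in 2 of 12. Between alveolar macrophages and lung CD11b DCs, 6 members were called (5 higher, 1 lower), beside 16.8% of all genes (10.2% higher, 6.6% lower). Besides Scd1 and Scd2 these were Fads1 (1.07 ± 0.35, adjusted p = 0.0389), Acss2 (1.501 ± 0.50, adjusted p = 0.0404), Srebf2 (0.67 ± 0.22, adjusted p = 0.0355) and Pmvk (-0.99 ± 0.26, adjusted p = 0.00909). The count was 3 without lung CD11b DC WT replicate 2, alveolar macrophage WT replicate 2 or alveolar macrophage KO replicate 2. In the 12 fits without 1 library, the Acss2 difference was called in 4 and the Fads1 difference in 5.

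The KO effect on Srebf2 in lung CD11b DCs also differed from that in spleen CD11b DCs (-0.82 ± 0.24, adjusted p = 0.0292) and, with the sign turned, from that in inflammatory DCs (0.76 ± 0.22, adjusted p = 0.0225). Elovl5 (-0.70 ± 0.17, adjusted p = 0.00854) and Scap (-0.57 ± 0.17, adjusted p = 0.0265) were the other members called between lung and spleen CD11b DCs, 3 of 34 and each lower, beside 12.5% of all genes (5.86% higher, 6.6% lower). This count was 0 in the fit on these groups alone, 1 without spleen CD11b DC WT replicate 1 or KO replicate 2, and 6 without lung CD11b DC KO replicate 1. Between inflammatory and lung CD11b DCs, 2 members were called beside 13% of all genes (6.08% higher, 6.95% lower), Srebf2 and Pmvk (-0.82 ± 0.26, adjusted p = 0.037), and the count ranged from 0 without lung CD11b DC KO replicate 2 to 5 without KO replicate 1. Between inflammatory DCs and alveolar macrophages 2 were called, both lower, beside 7.93% of all genes (2.34% higher, 5.59% lower). Between the 2 spleen subsets 0 were called by limma, edgeR or DESeq2, with 1 member at an unadjusted p under 0.05, beside 2.45% of all genes.

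The effects on Srebf1, Insig1 and Fasn were not shown to differ in any of the 5 tests. For Srebf1 the differences were -0.32 ± 0.14 (alveolar macrophages minus lung CD11b DCs), 0.07 ± 0.16 (lung minus spleen CD11b DCs), -0.04 ± 0.14 (inflammatory minus lung CD11b DCs), 0.28 ± 0.14 (inflammatory DCs minus alveolar macrophages) and -0.31 ± 0.18 (spleen CD8a minus CD11b DCs). For Insig1 they were -0.14 ± 0.28, 0.09 ± 0.31, 0.22 ± 0.28, 0.36 ± 0.28 and 0.10 ± 0.34 in the same order. For Fasn they were 0.02 ± 0.41, -1.02 ± 0.46, 0.43 ± 0.41, 0.41 ± 0.41 and -0.19 ± 0.50. For the remaining tests, the Srebf2 difference was 0.09 ± 0.22 between inflammatory DCs and alveolar macrophages and -0.11 ± 0.27 between the spleen subsets. The Scd1 difference was -1.64 ± 1.03 between lung and spleen CD11b DCs, 1.05 ± 0.92 between inflammatory and lung CD11b DCs, and -1.61 ± 1.13 between the spleen subsets, with wide errors and no call.

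Among WT cells at steady state, CD11b DCs of the lung had higher levels of most of the pathway's genes than CD11b DCs of the spleen. Of the 34 members, 22 were called higher in lung and 0 lower, or 64.7%, where 34.9% of all genes were called (21.1% higher, 13.8% lower). The median difference was 0.78 over the members and 0.01 over all genes. For 28 members the 3 lung libraries lay above both spleen libraries, as 28.1% of all genes did. Fads1 was at 822, 881 and 484 in lung and 115 and 106 in spleen (2.67 ± 0.28, adjusted p = 6.3e-08), the smallest p of the set. Sqle was at 919, 1000.3 and 645 in lung and 316 and 245 in spleen (1.59 ± 0.26, adjusted p = 4.77e-05), and Cyp51 at 1515, 1712 and 1098 against 642 and 544 (1.26 ± 0.20, adjusted p = 3.5e-05). Fdps, the farnesyl diphosphate synthase (1.15 ± 0.20, adjusted p = 6.4e-05), and Dhcr7 (1.41 ± 0.27, adjusted p = 0.000212) followed. Srebf2 (0.57 ± 0.17, adjusted p = 0.0113), Insig1 (0.83 ± 0.22, adjusted p = 0.00547) and Scd1 (2.20 ± 0.73, adjusted p = 0.0214) were called higher in lung, whereas Srebf1 (0.17 ± 0.11, adjusted p = 0.262) and Fasn (0.65 ± 0.32, adjusted p = 0.123) were not called. The count fell to 7 without spleen CD11b DC WT replicate 2 and was 23 at most without another library. Markers of other cells were also higher in the lung libraries. They were 12 of 13 for alveolar macrophages (summed counts 2381 to 5170.5 in lung, 192 to 226 in spleen, where Cidec was at 0) and 12 of 14 for monocytes and macrophages (98939 to 107721 in lung, 18742 to 25315 in spleen, none at 0). They were also 6 of 6 for T cells (349.9 to 942 in lung, 87.9 to 107 in spleen, none at 0) and 10 of 12 tested for lung epithelium, endothelium and stroma, with 1 lower (1348 to 4368 in lung, 764 to 955 in spleen, where 8 of 13 were at 0). Their part in the members' differences was not tested.

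Alveolar macrophages and lung CD11b DCs of WT mice differed in which SREBP gene was high. Srebf1 was at 1492, 1529.9 and 1528 in alveolar macrophages and 657, 677 and 647 in lung CD11b DCs (1.199 ± 0.10, adjusted p = 6.93e-10). Srebf2 was at 513, 574 and 576 against 1341, 1758 and 1516, the opposite order (-1.46 ± 0.15, adjusted p = 2.41e-08). Of the 34 members 16 were called, 6 higher and 10 lower in alveolar macrophages, or 47.1%, a share below the 51.2% of all genes (24% higher, 27.2% lower). The genes of polyunsaturated fatty acid desaturation were lower: Fads1 was at 87.9, 56.3 and 102 against 822, 881 and 484 (-3.13 ± 0.25, adjusted p = 2.21e-10) and Fads2 at 6.85, 5.52 and 7.59 against 89.9, 82.5 and 67.7 (-3.40 ± 0.74, adjusted p = 0.000474). Acss2 (-2.58 ± 0.35, adjusted p = 1.48e-06), Sc5d, a sterol desaturase (-1.51 ± 0.19, adjusted p = 4.17e-07), and Fasn (-0.71 ± 0.29, adjusted p = 0.0435) were lower too. The Fasn call held in 2 of the 6 fits without 1 library (limma adjusted p up to 0.146). It held in 7 of the 8 settings that kept all libraries. Mvd (1.32 ± 0.23, adjusted p = 4.63e-05), Dhcr7 (0.91 ± 0.24, adjusted p = 0.00272), Acly (0.76 ± 0.18, adjusted p = 0.00113) and Scap (0.55 ± 0.11, adjusted p = 0.000128) were higher. Insig1 (-0.19 ± 0.20, adjusted p = 0.453) and Scd1 (0.79 ± 0.65, adjusted p = 0.329) were not called. Markers of other cells also differed. In alveolar macrophages 6 of 6 T cell markers were lower (summed counts 14.3 to 17.1 against 349.9 to 942). So were 5 of 5 tested B cell markers (19.9 to 30.8 against 534 to 940). Of 12 tested for lung epithelium, endothelium and stroma 7 were lower and 2 higher (2700 to 2952 against 1348 to 4368). Their part in the members' differences was not tested.

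Inflammatory DCs from mite-exposed lungs had higher levels of most sterol synthesis genes than steady-state lung CD11b DCs, and lower levels of several fatty acid genes. Of the 34 members, 14 were called higher and 6 lower, or 58.8%, beside 47.5% of all genes (23.7% higher, 23.8% lower), and 10 of the 17 sterol genes were among those higher. Of the fatty acid synthesis genes 2 of 5 were lower and 1 higher, and of the desaturation and elongation genes 3 of 6 were lower and 1 higher. Mvd was at 1129, 812 and 1098 in inflammatory DCs and 299, 234 and 235 in lung CD11b DCs (1.97 ± 0.23, adjusted p = 2.8e-07), and Dhcr7 at 1326, 1169 and 1221 against 341, 349 and 394 (1.78 ± 0.24, adjusted p = 1.82e-06). Acat2 (1.17 ± 0.24, adjusted p = 0.000335), Ebp (0.54 ± 0.11, adjusted p = 0.000446) and Srebf1 (0.37 ± 0.10, adjusted p = 0.00451) were also higher, as was Scd2, at 1939, 1470.3 and 1809 against 776, 909 and 643 (1.17 ± 0.12, adjusted p = 2.67e-08). Srebf2 was lower, at 854, 632 and 682 against 1341, 1758 and 1516 (-1.09 ± 0.15, adjusted p = 3.18e-06). So were Elovl5 (-0.51 ± 0.11, adjusted p = 0.000481), Acss2 (-1.17 ± 0.35, adjusted p = 0.00865), Fads1 (-0.61 ± 0.25, adjusted p = 0.0481) and Fasn (-0.74 ± 0.29, adjusted p = 0.0388). Elovl5 and Acss2 were called in each of the 6 fits without 1 library, Fads1 in 2 and Fasn in 3. For Fads1 and Fasn the groups overlapped, and each was called in 4 of the 8 settings that kept all libraries. Insig1 (0.16 ± 0.20, adjusted p = 0.535) and Scd1 (0.11 ± 0.65, adjusted p = 0.913) were not called. In the same comparison 12 of 13 alveolar macrophage markers were higher (summed counts 814602 to 1176280 in inflammatory DCs, 2381 to 5170.5 in lung CD11b DCs), with Chi3l3 at 784487 to 1136000 and Car4 at 2937 to 12601 in the former. Of 14 monocyte and macrophage markers 9 were higher and 2 lower (224537 to 266574 against 98939 to 107721), and of 6 pan-DC markers 5 were lower and 1 higher (234089 to 274661 against 707251 to 815209). All 6 T cell markers were lower (22.2 to 71.3 against 349.9 to 942), as were 8 of 12 tested for lung epithelium, endothelium and stroma, with 1 higher, although the summed count of that list was higher (4906 to 7514 against 1348 to 4368). None of these markers was at 0 in all libraries of either group, and their part in the members' differences was not tested. Exposure, cell type and sex-linked reads changed together in this comparison and cannot be told apart.

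Between the WT spleen subsets, 9 members were called, 6 higher and 3 lower in CD8a DCs, beside 23% of all genes. Insig2 was at 539.6 and 519 in CD8a DCs and 236 and 238 in CD11b DCs (1.16 ± 0.15, adjusted p = 4.26e-06), and Fads1 at 475 and 489 against 115 and 106 (2.12 ± 0.30, adjusted p = 1.29e-05). Fasn was at 988 and 1035 against 572 and 376 (1.12 ± 0.35, adjusted p = 0.0228). Scap (0.54 ± 0.13, adjusted p = 0.0034) and Nsdhl (0.73 ± 0.25, adjusted p = 0.0345) were also higher. Elovl5 (-0.51 ± 0.13, adjusted p = 0.00672), Hsd17b7, a sterol ketoreductase (-1.18 ± 0.38, adjusted p = 0.0263), and Hmgcs1 (-0.68 ± 0.23, adjusted p = 0.0378) were lower. These 3 calls also depended on which library was left out. Without 1 library, Elovl5 ran from -0.61 to -0.40, Hsd17b7 from -1.56 to -0.80 and Hmgcs1 from -1.01 to -0.36. Of the 8 settings that kept all libraries, Elovl5 was called in 8, Hsd17b7 in 6 and Hmgcs1 in 5. Srebf1 (-0.02 ± 0.12, adjusted p = 0.937), Srebf2 (-0.13 ± 0.19, adjusted p = 0.688), Insig1 (-0.65 ± 0.24, adjusted p = 0.0573) and Scd1 (1.57 ± 0.80, adjusted p = 0.173) were not called. The Nsdhl call was lost in each of the 4 fits without 1 library (adjusted p from 0.0563 to 0.214), and the Fasn call held in 1 of 4. The count was 3 without spleen CD8a DC WT replicate 2, and the WT CD8a libraries held the red pulp macrophage markers given above, whose part was not tested.

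**Figure D4:**
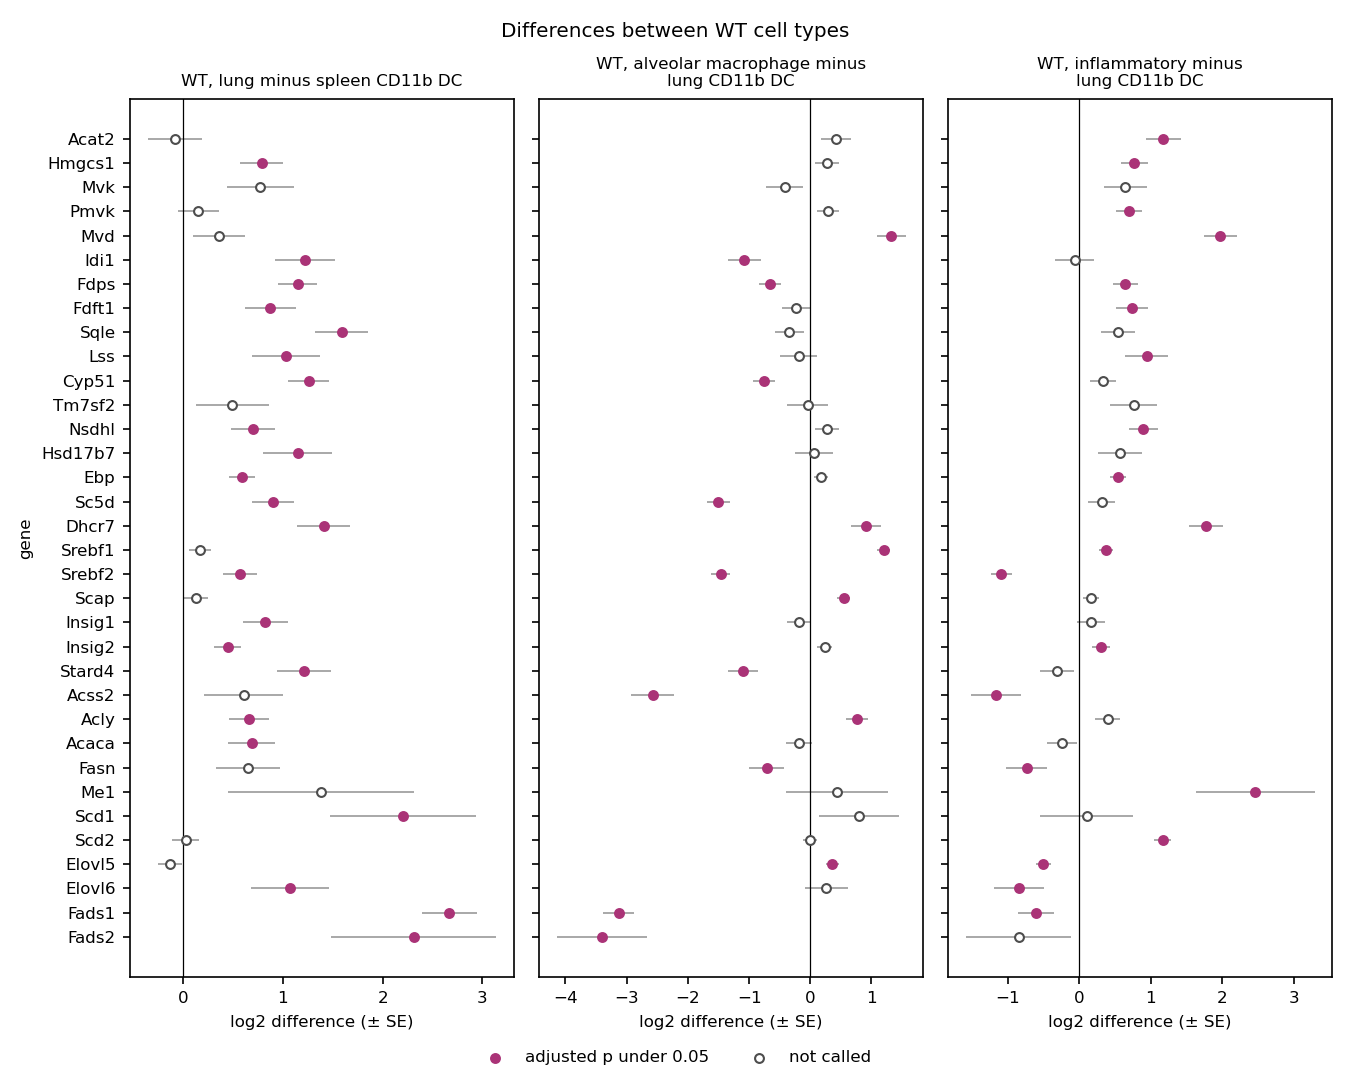
Log2 differences (points) with standard errors (bars) between WT cell types for the 34 members, with called genes filled: lung minus spleen CD11b DCs (left), alveolar macrophages minus lung CD11b DCs (middle) and inflammatory minus lung CD11b DCs (right). Filled points lie to the right of 0 for 22 members on the left, while the middle and right panels have filled points on both sides; the 3 panels share the lung CD11b DC libraries.

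Per kilobase of exon, so that genes could be set side by side, Elovl5 and Acly had the highest levels of the members in WT spleen CD8a DCs (390 and 230.2 normalized counts per kb), spleen CD11b DCs (554 and 267) and lung CD11b DCs (505 and 426). In alveolar macrophages the order of the first 2 was Acly (719) and Elovl5 (646), and in inflammatory DCs Acly (559) and Mvd (545). Scd1, the gene with the largest rise in KO alveolar macrophages, ranked 20 of 34 there in WT, at 71.8 per kb. Me1, the malic enzyme that supplies NADPH, was listed at 0 in all spleen CD11b DC libraries and reached 13.0 to 13.8 normalized counts in WT inflammatory DCs.

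Several members share sequence or position with other genes. Scd1 and Scd2, which are paralogues, lie on chromosome 19, at 44394455 to 44407879 and 44293674 to 44306864 (GRCm38), and how reads matching both were counted was not given in the sources used here. Acss2, Cyp51, Srebf1, Fdft1, Mvd, Tm7sf2, Acaca and Fdps overlap other coding genes, and whether reads were counted by strand was not given in the sources used here.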

How the data were processed

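RNA from FACS-purified cells (RNA integrity number above 8.5, per the labels) was sequenced from Clontech and Nextera XT libraries. The authors deposited 1 table of normalized counts, a signal of whole reads divided by a size factor per library. Per the submitters' processing notes, STAR 2.3.1s, HTSeq, DESeq2 1.10.1 and the mm10 genome were used. Dividing each column by its smallest step gave whole reads for 100% of values (tolerance 1e-06), with size factors of 0.754 to 1.48. Of the columns, 0 belonged to no sample of the study. No pair of replicates agreed within sampling noise.

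Genes with a normalized count of at least 10 in at least 2 libraries were tested with limma 3.58.1 (R 4.3.3) on log2(normalized count + 1), with 10 group means over 26 libraries, a mean-variance trend and Benjamini-Hochberg adjustment within each of 15 comparisons. Fold changes on this scale understate those of low genes. Beside it, edgeR 4.0.16 and DESeq2 1.42.0 were run on the recovered reads, and pseudocounts of 0.25 and 8, no filter, sample weights, TMM scaling, fits on the compared groups alone and fits without each library. The test was also run on simulated counts with 200 changed genes in 3 draws. It called 68.67% of 2-fold changes for alveolar macrophages, 70.67% for lung CD11b DCs and 67.33% for inflammatory DCs. For spleen CD8a DCs it called 58.33%, and for spleen CD11b DCs 59.33%. Of the genes called there, 7.648% were false calls for alveolar macrophages, 8.411% for lung CD11b DCs and 6.719% for inflammatory DCs. The share was 10.28% for spleen CD8a DCs and 10.32% for spleen CD11b DCs. Each of these shares was above the adjusted p threshold used for calling. Nothing in the labels says that replicates were separate animals, so p-values measure the spread between these libraries, which may be technical.

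The members and lists were chosen with earlier results of these data known. Values are given in every comparison for Srebf1, Srebf2, Insig1, Fasn and Scd1, and per comparison for up to 5 called members with the smallest p in each direction and, from the list of other pathway genes, up to 3, of which some are not reported here. Other genes named with values were chosen after their values were seen. Promoter windows were read from RefSeq (GRCm38.p6).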

Additional observations from a re-analysis of the deposited data

Results flagged for a closer look

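The KO effect on 8 members differed between cell types by the test of the difference itself (limma, adjusted p under 0.05), in 13 results. Because the tests share the lung CD11b DC or alveolar macrophage libraries, they are not independent. The calls without 1 library are given above for Scd1, Scd2, Acss2 and Fads1. Those of Srebf2, Pmvk, Elovl5 and Scap are not reported here.

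In alveolar macrophages minus lung CD11b DCs, the log2 difference in KO effect was 4.06 for Scd1, 1.501 for Acss2, 1.07 for Fads1, 1.00 for Scd2, 0.67 for Srebf2 and -0.99 for Pmvk. In inflammatory DCs minus alveolar macrophages it was -3.01 for Scd1 and -1.18 for Scd2. In lung minus spleen CD11b DCs it was -0.70 for Elovl5, -0.57 for Scap and -0.82 for Srebf2. In inflammatory minus lung CD11b DCs it was -0.82 for Pmvk and 0.76 for Srebf2.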

How the results depend on the processing

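No paired analysis was run, because the labels give the libraries no shared replicate numbers. In the spleen KO libraries, Y-linked and Xist reads of like size recurred in both subsets, as given above. Pairing by those reads was not tested. Of 119 counts of called members under the 8 settings that kept all libraries, 103 stayed within 1.5 times the count reported. The others were, for KO in lung CD11b DCs, 4 with no filter, 4 with sample weights, 4 with edgeR and 1 with a fit on the groups compared. They were 21 with sample weights and 21 with the fit on the groups compared for KO in alveolar macrophages, and 2 with sample weights for KO in spleen CD11b DCs. They were 5 with either of these settings between the WT spleen subsets. For the differences in KO effect, the fit on the groups compared gave 0 between lung and spleen CD11b DCs, 0 between inflammatory and lung CD11b DCs, and 5 between inflammatory DCs and alveolar macrophages. Sample weights gave 1 and 4 in the last 2 of these, and a pseudocount of 0.25 or no filter gave 1 in the last. The cause was not tested.

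With 1 library left out, the counts ran from 3 to 8 for KO in alveolar macrophage, 4 to 9 for KO in lung CD11b, 0 to 1 for KO in spleen CD8a, 3 to 7 for the difference between alveolar macrophage and lung CD11b, 1 to 2 for the difference between inflammatory and alveolar macrophage, 0 to 5 for the difference between inflammatory and lung CD11b, 1 to 6 for the difference between lung CD11b and spleen CD11b, 3 to 11 for the mean KO effect, 7 to 23 for WT lung CD11b against spleen CD11b, 3 to 6 for WT spleen CD8a against spleen CD11b. Where a group was left with 1 library, it was assumed to vary like the others.

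Of 1000 named values under the 8 settings, 938 kept their direction and call, 47 lost and 9 gained the call, and 6, none of them called, changed sign. The 6 were Srebf1 for KO in lung CD11b DCs (0.0161 with TMM, 0.0157 with edgeR, 0.0129 with DESeq2) and Insig1 with sample weights (-0.0177 between WT inflammatory and lung CD11b DCs, and for the KO effect -0.10 between lung and spleen CD11b DCs and 0.095 between alveolar macrophages and lung CD11b DCs). With 1 library left out, 850 of 1024 kept direction and call, 127 lost and 6 gained the call, and 41 changed sign, none of them called. The log2 ranges of the latter were, by comparison (cell types without the word DC): KO in spleen CD8a (Srebf2 -0.0519 to 0.13), KO in spleen CD11b (Srebf1 -0.15 to 0.0122, Srebf2 -0.0876 to 0.40, Scd1 -0.75 to 0.34), KO in lung CD11b (Srebf1 -0.10 to 0.12), KO in alveolar macrophage (Srebf2 -0.0494 to 0.0413), KO in inflammatory (Srebf1 -0.11 to 0.0285, Fasn -0.70 to 0.11), WT spleen CD8a against spleen CD11b (Srebf1 -0.10 to 0.0564, Srebf2 -0.37 to 0.11), WT inflammatory against lung CD11b (Scd1 -0.27 to 0.62, Insig1 -0.14 to 0.34), the difference between spleen CD8a and spleen CD11b (Insig1 -0.21 to 0.41, Srebf2 -0.35 to 0.13, Fasn -0.49 to 0.11), the difference between lung CD11b and spleen CD11b (Srebf1 -0.0365 to 0.19, Insig1 -0.22 to 0.40), the difference between alveolar macrophage and lung CD11b (Fasn -0.11 to 0.25, Insig1 -0.33 to 0.16), the difference between inflammatory and lung CD11b (Srebf1 -0.16 to 0.0655, Scd1 -0.22 to 1.77, Fasn -0.0232 to 0.79), the difference between inflammatory and alveolar macrophage (Srebf2 -0.00352 to 0.21, Fasn -0.0435 to 0.77). Me1 did not exceed 14.6 normalized counts in any library, which limits its precision.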

Other observations

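Among WT cells, 16 of the 44 tested genes of the list of other sterol and fatty acid genes were called between lung and spleen CD11b DCs, 15 higher in lung and 1 lower, beside 34.9% of all genes. Between alveolar macrophages and lung CD11b DCs 25 were called (15 higher, 10 lower), and between inflammatory and lung CD11b DCs 22 (14 higher, 8 lower), beside 51.2% and 47.5% of all genes.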
